A study of Mus musculus with 16 samples.

Results

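The ribosome of the cytoplasm consists of ribosomal RNA and a set of ribosomal proteins (r-proteins), which join the large subunit, where peptide bonds are made, or the small subunit, where the mRNA is decoded. The mRNAs of these proteins are abundant and usually begin with a cytosine followed by a run of pyrimidines, the 5′ terminal oligopyrimidine (TOP) motif, through which growth signals act on their translation together. The members described here were taken by name: genes called Rpl or Rps with a digit, Rplp genes and Rpsa, without pseudogenes, S6 kinases and named copies. The rule gave 77 of the 13015 listed genes, 46 of the large and 31 of the small subunit. Fau, whose product is an r-protein fused to a ubiquitin-like protein, lies outside the name rule and is given separately.

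RNA was measured in NIH/3T3 cells, an established mouse fibroblast line, transfected with siRNA to Apc (siAPC) or with a control siRNA (siControl). After serum starvation, cells stood for 2 h on membranes with 3.0 µm pores, met lysophosphatidic acid from below for 1 h and were fixed for 10 min in 0.3% paraformaldehyde. Protrusions (Ps) and cell bodies (CB), taken from either side of the membrane, gave 4 libraries per fraction and siRNA, hence 4 groups (CB and Ps of siControl, CB and Ps of siAPC). The labels give replicate numbers only, and the study's text calls the replicates independent. P-values measure the spread between these libraries. Values are the deposited log2 CPM (reads plus 0.5, divided by a scaled library size), and every difference below is a log2 fold change on that scale with its SE, unless said otherwise.

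Listed reads per library ranged from 13466225 to 20296087. Apc, the targeted gene, was left at 31.3% of the siControl level in CB and at 27.9% in Ps (limma, adjusted p = 0.000142 and 3.11e-05). All 9 fibroblast markers were listed, against 2 of 4 epithelial, 1 of 3 endothelial, 1 of 3 leukocyte and 1 of 3 muscle markers, and none of the latter lists summed to 15 CPM in any library. In 4 libraries (siAPC Ps 2, siAPC CB 2, siControl Ps 2 and siControl CB 3) the deviation of genes from the rest of their group fell with GC content (Spearman rho from -0.65 to -0.53, against -0.04 to 0.53 in the other libraries). Counts are therefore also given without these 4. They are called the 4 libraries with a GC trend below, although the deviation rose with GC content in some others, as in siAPC CB 3 (rho = 0.53).

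Starts of 12 members are shown because these genes stand at an end of the orders described below, or, for Rps6, because its protein is the substrate of S6 kinase. Each window holds 15 bases before a RefSeq start and 15 from it on, read 5′ to 3′ along the gene on build GRCm38.p6. Capitals mark the longest run of a C followed by at least 4 pyrimidines that begins within 10 bases of that start, and a window without capitals has none that begins there. Where a gene has 2 annotated starts (Rps24 and Rps21), the start with the longer run is shown. Windows and strands are chr14:24490663-24490692 (plus) for Rps24, chr11:68901551-68901580 (plus) for Rpl26, chr3:86142654-86142683 (minus) for Rps3a1, chr5:107900513-107900542 (plus) for Rpl5, chr7:45718056-45718085 (plus) for Rpl18 and chr14:18270972-18271001 (minus) for Rpl15. They are chr7:99483695-99483724 (minus) for Rps3, chr2:32961697-32961726 (plus) for Rpl12, chr9:64173372-64173401 (plus) for Rpl4, chr2:180257364-180257393 (plus) for Rps21, chr11:114668565-114668594 (plus) for Rpl38 and chr4:86857353-86857382 (minus) for Rps6.
Rps24: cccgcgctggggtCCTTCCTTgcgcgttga
Rpl26: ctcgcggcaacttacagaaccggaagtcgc
Rps3a1: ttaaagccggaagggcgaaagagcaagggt
Rpl5: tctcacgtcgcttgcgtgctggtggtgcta
Rpl18: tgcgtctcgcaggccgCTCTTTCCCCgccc
Rpl15: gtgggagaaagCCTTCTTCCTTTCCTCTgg
Rps3: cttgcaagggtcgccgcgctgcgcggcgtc
Rpl12: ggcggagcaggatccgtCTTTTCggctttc
Rpl4: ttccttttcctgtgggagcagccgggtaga
Rps21: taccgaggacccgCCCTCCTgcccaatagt
Rpl38: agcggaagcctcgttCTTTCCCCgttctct
Rps6: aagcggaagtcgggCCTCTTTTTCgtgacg

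A RefSeq start was at hand for 57 members. A C followed by at least 4 pyrimidines (C or T, on the gene's own strand) stood exactly at a start of 13 of the 57 (22.8%), against 813 of 27025 genes in the table (3.01%). Within 10 bases of a start such a run began in 34 of 57 members (59.6%), in 37% of the 9170 listed genes in the table and in 34.4% of all genes in it. The 34 members with a run within 10 bases had a median Ps against CB difference of 1.27 in siControl, and the 23 without had 1.28. Rpl15, with a run of 17 bases, and Rps24, with a run of 8, stand at opposite ends of the Ps against CB order. A missing match says only that no such run begins within 10 bases of an annotated start.

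The first comparison asked how r-protein mRNAs are distributed between protrusions and cell bodies. They made up 12.3% ± 0.66 (SD, n = 4) of the listed reads in siControl CB and 23.1% ± 1.9 in siControl Ps. With siAPC the shares were 10.5% ± 0.092 in CB and 20.0% ± 0.40 in Ps. Every Ps library lay above every CB library, the lowest Ps library of either siRNA at 19.6% and the highest CB library at 13%. The difference was 10.7 percentage points in siControl and 9.48 in siAPC, each with an exact two-sided permutation p of 0.0286, the smallest that 4 against 4 libraries allow. A share cannot tell more r-protein mRNA per unit of material from less of the other RNA, and in such bulk samples fewer cells and less RNA per cell cannot be told apart. In the same libraries the nuclear RNAs Malat1 and Neat1 were at -2.77 and -1.76 (log2) in Ps against CB of siControl, and their part in the result was not tested.

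**Figure D1:**
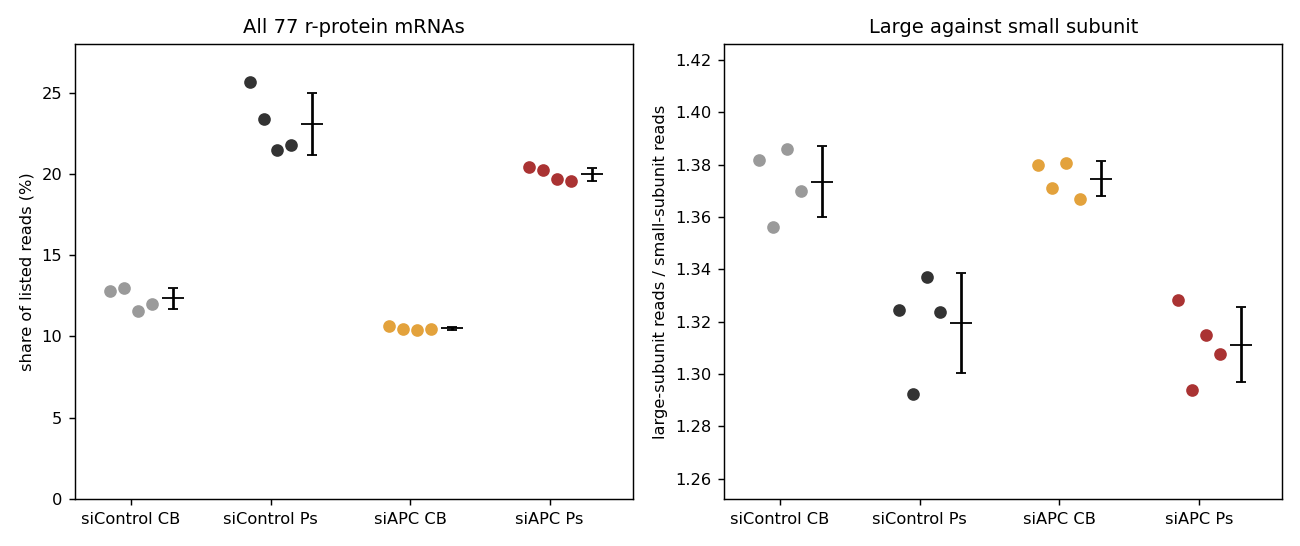
Share of listed reads in the 77 r-protein mRNAs (left, percent) and large-subunit reads per small-subunit read (right, axis not from 0) by library in the 4 groups. Points are libraries in the order of replicate numbers, and the bar beside them is the mean with the SD (n = 4). The lowest Ps share (19.6%) is above the highest CB share (13%), and the ratio on the right is lower in Ps than in CB.

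The balance between the subunits shifted slightly with the fraction. Reads in large-subunit members per read in small-subunit members were 1.37 ± 0.014 (SD, n = 4) in siControl CB and 1.32 ± 0.019 in siControl Ps. In siAPC the ratio was 1.37 ± 0.0067 in CB and 1.31 ± 0.014 in Ps. Ps minus CB was -0.0542 in siControl and -0.0634 in siAPC, both with an exact permutation p of 0.0286. Both differences need no scaling between libraries. Between siRNAs the ratio did not differ beyond the spread, with siAPC minus siControl at 0.00114 in CB (exact permutation p = 0.943) and -0.00813 in Ps (exact permutation p = 0.514). Over Ps and CB libraries of equal replicate number, the small-subunit median of the log2 difference was above the large-subunit median by 0.047 ± 0.007 (SD, n = 4) in siControl and 0.042 ± 0.02 in siAPC.

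Gene by gene, 76 of 77 members were higher in Ps than in CB of siControl (limma, Benjamini-Hochberg over all genes, adjusted p below 0.05), where 29.1% of all genes were. In siAPC it was again 76 of 77, against 29.8% of all genes. Rpl24 was the exception in both. The 4 Ps libraries lay above the 4 CB libraries without overlap for 76 members in siControl (24% of all genes) and for 76 in siAPC (28.2%). The median difference was 1.27 in siControl (1.24 for the large and 1.29 for the small subunit) and 1.19 in siAPC (1.18 and 1.20), where the median of all genes was -0.00 and 0.01. By the rule of more than 2-fold with an unadjusted p below 0.05, 63 members were Ps-enriched in siControl (7.19% of all genes) and 52 in siAPC (7.67%). Rpl13 lay just inside and Rpl7a just outside that fold, both at 1.00 when rounded, and next came Rpl10 at 0.99. The study set r-protein mRNAs apart on these same libraries, so these counts are not independent evidence of their direction. The study also measured r-protein mRNAs in Ps and CB by nanoString, a count of RNA without amplification, which is not part of these data.

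The size of the difference depended on how libraries were scaled to each other. The siControl median was 0.97 with scaling to total listed reads (34 members past the 2-fold rule), 0.65 after a loess on GC content and transcript length (10 members) and 0.52 after quantile normalization (7 members). With the 4 GC-trend libraries left out it was 1.18, with 61 members past the rule.

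**Figure D2:**
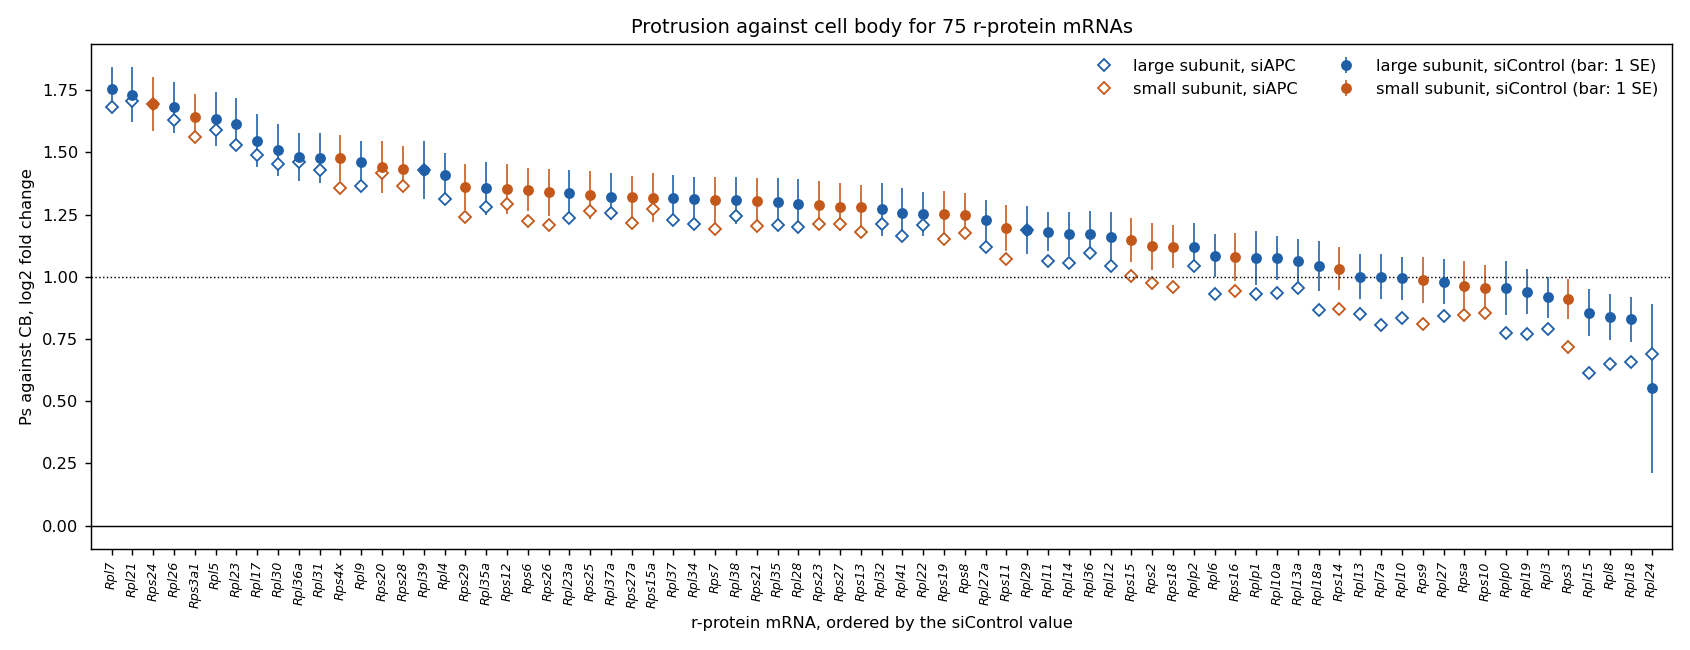
Ps against CB (log2 fold change) for 75 of the 77 r-protein mRNAs, ordered by the siControl value, with the 2-fold line dotted. Filled circles with 1 SE are siControl and open diamonds siAPC, blue for the large and orange for the small subunit. The circles run from 1.76 for Rpl7 down to 0.55 for Rpl24, the member with the widest error bar.

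At the top of the order stood Rpl7, Rpl21, Rps24, Rpl26 and Rps3a1. Rpl7, a protein of the large subunit, read 9.89, 9.82, 9.90 and 9.83 in siControl CB and 11.89, 11.67, 11.43 and 11.48 in siControl Ps. The groups did not overlap, and the difference was 1.76 ± 0.09, or 3.38-fold (limma, adjusted p = 1.63e-11). In siAPC, Rpl7 read 9.64, 9.65, 9.50 and 9.53 in CB and 11.35, 11.36, 11.24 and 11.11 in Ps. The fractions were again apart, by 1.68 ± 0.09.

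Rps24, a gene mutated in Diamond-Blackfan anaemia, an inherited failure of red cell formation, read 10.23, 10.20, 10.02 and 10.03 in siControl CB and 12.14, 11.96, 11.58 and 11.60 in siControl Ps. Every Ps library was above every CB library, by 1.70 ± 0.11 (limma, adjusted p = 2.51e-10), and siAPC gave 1.69 ± 0.11. Rpl21 of the large subunit differed by 1.73 ± 0.11, Rpl26 at the rim of the exit tunnel for the new peptide by 1.68 ± 0.10, and Rps3a1 of the small subunit by 1.64 ± 0.09. Neighbours among these 5 differ by less than 1 SE, so their order is not resolved.

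At the bottom stood Rps3, Rpl15, Rpl8, Rpl18 and Rpl24. Rps3, which lines the channel where the mRNA enters the small subunit, read 10.95, 10.96, 10.62 and 10.82 in siControl CB and 11.95, 11.70, 11.68 and 11.66 in siControl Ps. It was higher in every Ps library, but by 0.91 ± 0.08 only (limma, adjusted p = 1.54e-08). Rpl8, which reaches toward the catalytic centre of the large subunit, read 12.01, 11.97, 11.67 and 11.86 in siControl CB and 12.95, 12.57, 12.70 and 12.64 in siControl Ps. CB and Ps did not overlap, and the difference of 0.84 ± 0.09 was 1.79-fold. Rpl15 and Rpl18, both of the large subunit, differed by 0.86 ± 0.10 and 0.83 ± 0.09. Rps3, Rpl15, Rpl8 and Rpl18 differ from each other by up to 1 SE, so their order is not resolved. After quantile normalization 3 of them were not called in siControl, Rpl8 at 0.052, Rps3 at 0.032 and Rpl18 at -0.057. In siAPC all 4 were not called after that scaling, Rpl18 at 0.065, Rpl15 at 0.048, Rps3 at 0.040 and Rpl8 at -0.072. After the loess the low place of Rps3 in siControl was not kept, at 0.77 against a member median of 0.65. Rpl8 was then at 0.53, Rpl18 at 0.41 and Rpl15 at 0.38.

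Rpl24, a large-subunit protein, stood apart in depth, with 7 to 22 reads per library against at least 2020 for each other member. It read 0.14, 0.04, -0.89 and -0.00 in siControl CB and 0.41, 0.43, 0.12 and 0.53 in siControl Ps. The groups overlapped, and the difference of 0.55 ± 0.34 was not called (limma, adjusted p = 0.168), nor was that of 0.69 ± 0.34 in siAPC (adjusted p = 0.0867). After the loess the siControl value turned to -0.11. The siAPC difference was called without the 4 GC-trend libraries (adjusted p = 0.0335), without siAPC CB 4 (0.0257) and without siAPC Ps 2 (0.0266). Of the 50-base stretches of its transcript, 67.4% also occur in another listed gene, and how reads with several matches were counted is not given in the sources used here. Over all members the median of that percentage was 53.1. The values of members with close copies are uncertain for this reason, to a degree that was not measured. Of the 35 members with under 50% shared stretches, all 35 were called higher in Ps in each siRNA.

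**Figure D3:**
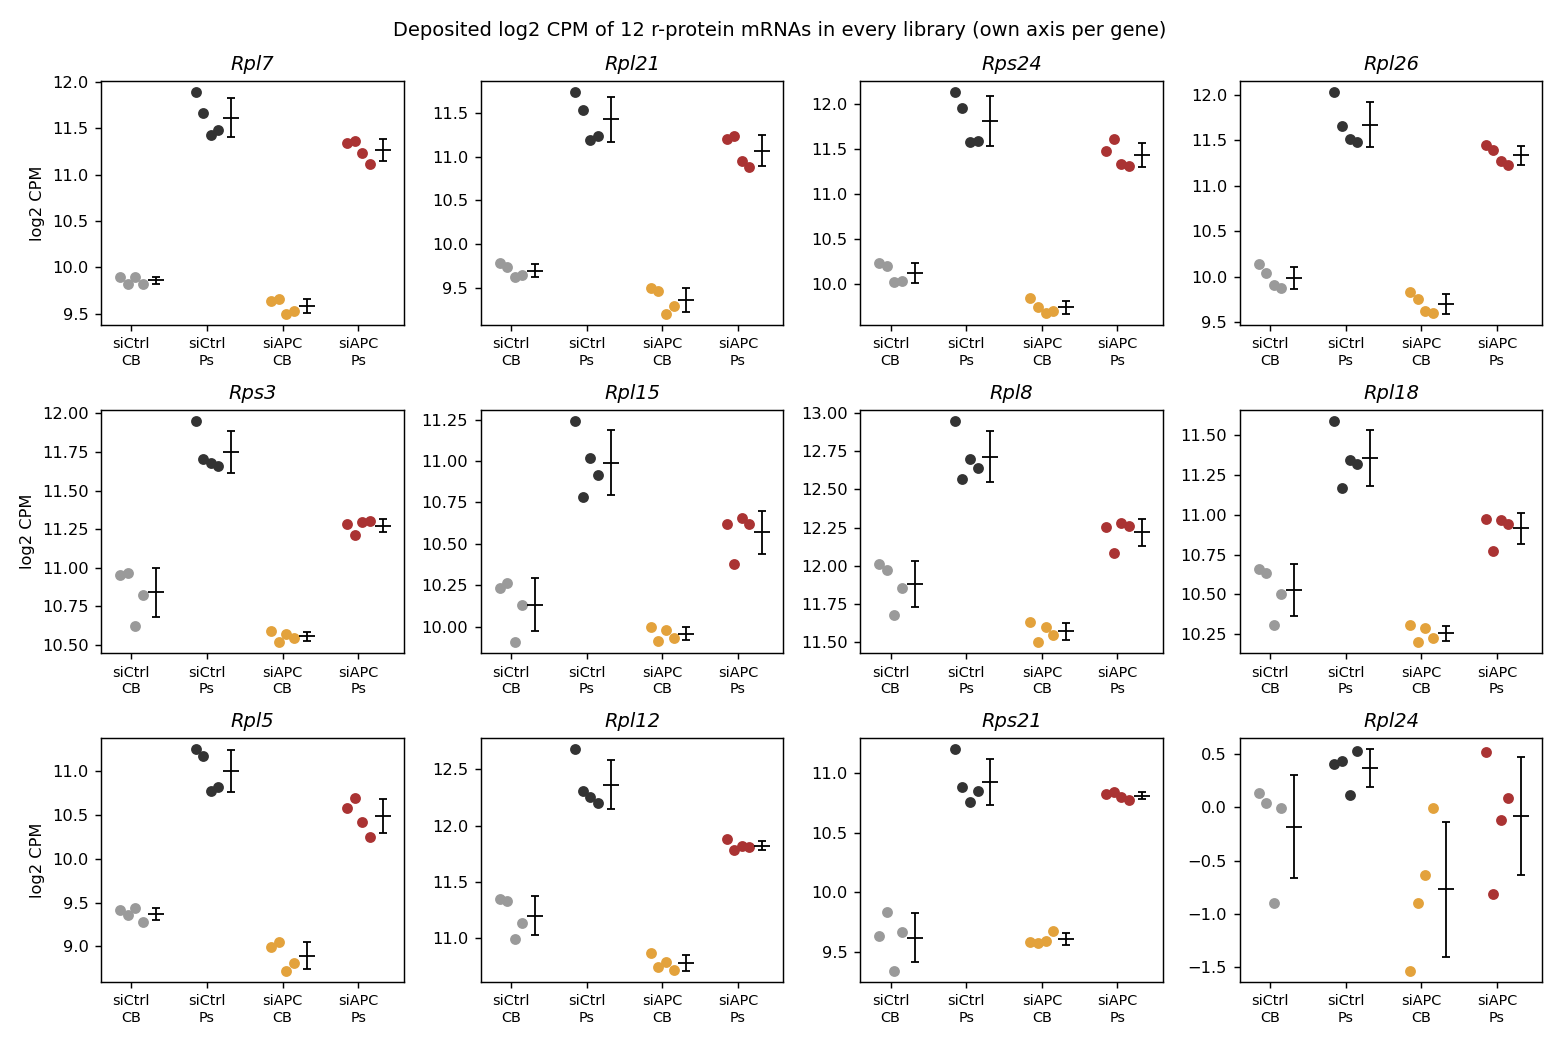
Deposited log2 CPM of 12 r-protein mRNAs in every library, 1 panel with its own axis per gene. Points are libraries in the order of replicate numbers and the bar is the mean with the SD (n = 4). CB and Ps are apart within each siRNA in every panel but that of Rpl24. Its values spread over more than 1 log2 unit within each group but siControl Ps.

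By place in the ribosome, the 8 members of the exit tunnel wall and rim had a median Ps against CB difference of 1.42 in siControl. Rpl26 was highest at 1.68, followed by Rpl17 at 1.55, Rpl31 at 1.48, Rpl39 at 1.43, Rpl4 at 1.41, Rpl23a at 1.34, Rpl35 at 1.30 and Rpl19 at 0.94. In the P stalk and its base, which recruit elongation factors, Rpl12 was at 1.16, Rplp2 at 1.12, Rplp1 at 1.08 and Rplp0 at 0.96. The 3 proteins that reach toward the catalytic centre were Rpl10 at 0.99, Rpl3 at 0.92 and Rpl8 at 0.84, none of them past the 2-fold rule. Rpl5 and Rpl11, which bring 5S ribosomal RNA to the large subunit and can bind Mdm2, were at 1.63 and 1.18.

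In the small subunit, the mRNA entry channel proteins were at 1.12 for Rps2, 0.99 for Rps9 and 0.91 for Rps3. After the loess they were at 0.87, 0.51 and 0.77, where the member median was 0.65. Around the mRNA exit, Rps28 was at 1.43, Rps26 at 1.34 and Rps14 at 1.03. In the decoding region, Rps27a was at 1.32, Rps23 at 1.29 and Rps15 at 1.15, and Rps6 was at 1.35. The 9 members of the Diamond-Blackfan anaemia list ran from 0.96 for Rps10 to 1.70 for Rps24, with Rpl35a at 1.36, Rps7 at 1.31 and Rps19 at 1.25. Every member of these lists was called higher in Ps, as were 76 of the 77, so the lists differ in the size of the difference, which was not tested between lists.

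The members kept much the same order in both siRNAs. Across the 77, Ps against CB in siControl and in siAPC, which share no library, had a Spearman rho of 0.99 (0.96 after the loess). This is a description across genes, which share base composition, and members are not replicates. The siControl difference was lower where the coding sequence was richer in GC (rho = -0.64) and, less so, where it was longer (rho = -0.35, and -0.13 with transcript length). The 39 members at or below the median GC content of 52.7% had a median of 1.35, and the 38 above it 1.11. After the loess, rho was -0.23 with GC content, 0.35 with coding length and 0.66 with transcript length, so the relation with length turned its sign.

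**Figure D4:**
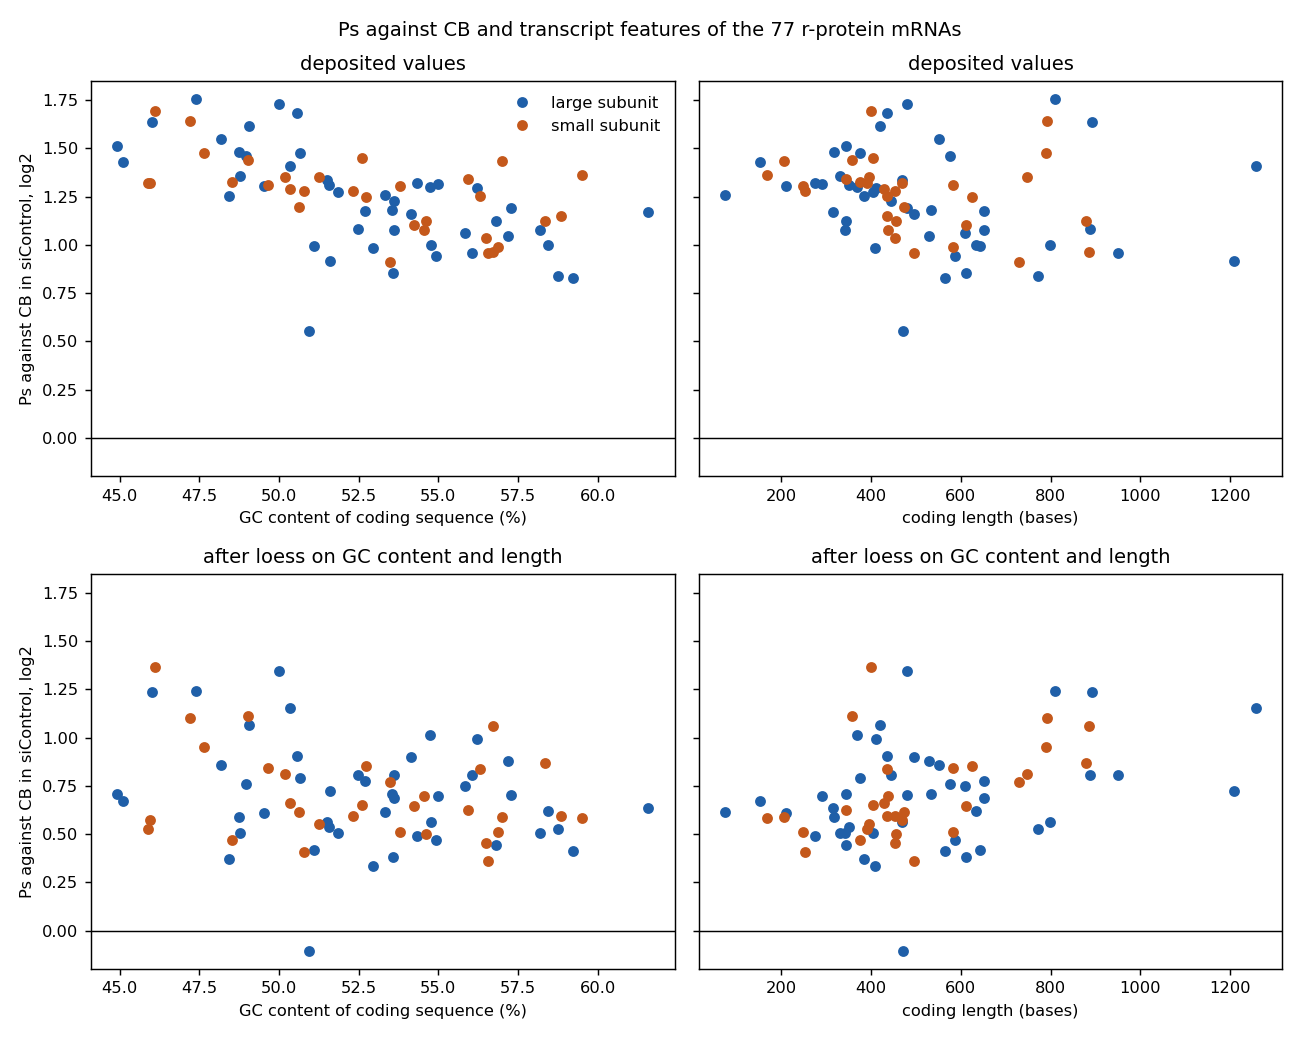
Ps against CB in siControl (log2) against GC content (left, percent) and length (right, bases) of the coding sequence, 1 point per r-protein mRNA, for deposited values (top) and after a loess on GC content and transcript length (bottom). The top left panel falls from left to right (rho = -0.64), the bottom left panel less so (rho = -0.23).

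The second comparison asked whether Apc knockdown alters this distribution. The difference between the fold changes, log2(Diff FC), siAPC minus siControl, had a median of -0.10, with 75 of 77 members below 0. Over all genes the median was 0.0048, with 6367 of 13015 below 0. No member was called lower by limma (0.0231% of all genes were) or higher, and none had an unadjusted p below 0.05. With voom weights none was called in either direction. The smallest p was 0.0861, with an adjusted p of 0.981. The lowest values were -0.24 ± 0.13 for Rpl15, -0.19 ± 0.13 for Rpl7a and -0.19 ± 0.11 for Rps3, and the highest 0.14 ± 0.48 for Rpl24, 0.00 ± 0.16 for Rpl39 and -0.00 ± 0.15 for Rps24. The sign of the median turned with the scaling, to 0.041 with total listed reads, where the median of all genes was 0.15, and to 0.098 after quantile normalization, with 59 and 71 members above 0. Leaving out the 4 GC-trend libraries, the median was -0.046. It was -0.0075 without siControl Ps 1, with 43 members below 0, and -0.039 without siControl CB 3, with 57 below 0.

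The third comparison was the level in siAPC against siControl within a fraction. All 77 members had lower values with siAPC in CB and in Ps, except that higher values stood at 6 members in CB and 12 in Ps after quantile normalization, at 1 and 1 with total listed reads, at 1 and 2 after the loess, and at 1 in CB (Rps21) without siControl CB 2 or without siControl CB 4. Of all 13015 genes, 7561 had lower values with siAPC in CB and 7019 in Ps. In CB, 23 of 77 members were called lower, where 5.87% of all genes were, and none higher. The member median in CB was -0.26 against -0.04 over all genes. In Ps, 68 of 77 were called lower, where 11.2% of all genes were, and none higher, with a median of -0.36 against -0.02 over all genes. The calls were 13 large-subunit and 10 small-subunit members in CB, and 40 and 28 in Ps. The siAPC libraries lay below the siControl libraries without overlap for 34 members in CB (9.73% of all genes) and for 65 in Ps (11.6%). The share of listed reads in members fell by 1.84 percentage points in CB and fell by 3.11 in Ps, with an exact permutation p of 0.0286 each. With siAPC Ps 1, 2 or 3 left out, the exact permutation p in Ps was 0.0571, and without siAPC Ps 4 it was 0.0857.

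Other RNA moved with these groups. The 9 fibroblast markers, collagen and fibronectin genes among them, summed to 35754 to 39044 CPM in siControl CB and 46341 to 51006 in siAPC CB. In Ps they summed to 22018 to 24221 CPM with siControl and 27044 to 29483 with siAPC. The nuclear RNAs Malat1 and Neat1 together were at 643 to 892 CPM in siControl CB and 422 to 572 in siAPC CB, without overlap, and at 126 to 308 and 105 to 238 in Ps. The part of either list in the lower r-protein values was not tested.

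The count in CB depended on the fit and on single libraries. In place of 23 it was 45 with the replicate block, 43 after quantile normalization, 52 with total listed reads and 53 after the loess. Leaving out siControl CB 3, the library with the lowest r-protein share of its group, gave 54 members called lower, and leaving out siControl CB 1, 2 or 4 gave 7, 7 and 9. Leaving out siAPC CB 2, 3 or 4 gave 9, 7 and 7. In Ps, leaving out siControl Ps 1, the library with the highest r-protein share, gave 45. Without the 4 libraries with a GC trend, 49 members were lower in CB and 65 in Ps. After quantile normalization the median in Ps was -0.068, with 12 members called lower.

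**Figure D5:**
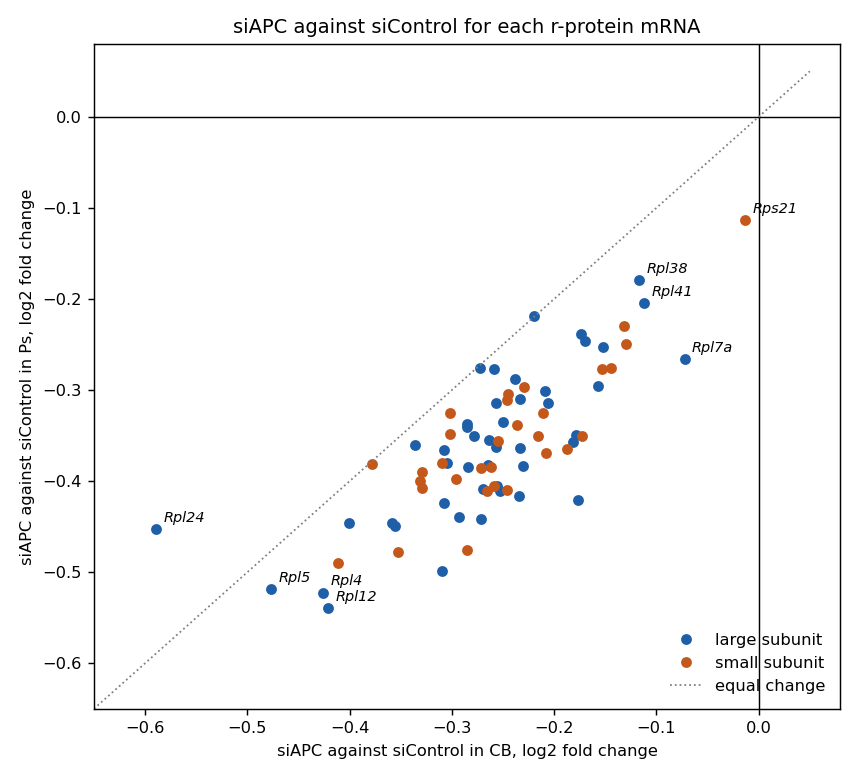
siAPC against siControl (log2 fold change) in CB (horizontal) and in Ps (vertical) for each of the 77 r-protein mRNAs, blue for the large and orange for the small subunit, with the line of equal change dotted. Every point lies below 0 on both axes, and Rps21, at -0.01 and -0.11, lies nearest to 0.

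Rpl5, Rpl4 and Rpl12 were the called members that fell most in both fractions. Rpl12, at the base of the P stalk, read 11.35, 11.33, 10.99 and 11.14 in siControl CB and 10.87, 10.74, 10.79 and 10.72 in siAPC CB. In Ps it read 12.68, 12.31, 12.25 and 12.20 with siControl and 11.88, 11.79, 11.82 and 11.81 with siAPC. The siRNAs did not overlap in either fraction. Rpl12 fell by 0.42 ± 0.10 in CB (limma, adjusted p = 0.00671) and by 0.54 ± 0.10 in Ps (adjusted p = 0.000559), to 0.688 of the siControl level in Ps.

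Rpl5 read 9.41, 9.36, 9.43 and 9.28 in siControl CB and 8.99, 9.05, 8.72 and 8.81 in siAPC CB. In Ps it read 11.25, 11.17, 10.77 and 10.82 with siControl and 10.58, 10.70, 10.42 and 10.25 with siAPC. All siAPC libraries were lower in each fraction, by 0.48 ± 0.11 in CB (limma, adjusted p = 0.00614) and by 0.52 ± 0.11 in Ps (adjusted p = 0.00203, and 0.0642 after quantile normalization). Rpl4, a loop of which narrows the exit tunnel, fell by 0.43 ± 0.09 in CB (limma, adjusted p = 0.00285) and by 0.52 ± 0.09 in Ps (adjusted p = 0.000281).

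Rps6 fell by 0.35 ± 0.09 in CB (limma, adjusted p = 0.00946) and by 0.48 ± 0.09 in Ps (adjusted p = 0.00051). Rps3a1 fell by 0.41 ± 0.09 and 0.49 ± 0.09. Rpl24 had the lowest value in CB, -0.59 ± 0.34, but was not called (limma, adjusted p = 0.291).

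At the other end, Rps21 of the small subunit read 9.64, 9.83, 9.34 and 9.67 in siControl CB and 9.58, 9.58, 9.59 and 9.68 in siAPC CB. In Ps it read 11.20, 10.89, 10.76 and 10.85 with siControl and 10.82, 10.84, 10.80 and 10.78 with siAPC. The siRNAs overlapped in both fractions, at -0.01 ± 0.09 (limma, adjusted p = 0.95) and -0.11 ± 0.09 (adjusted p = 0.45). Rpl41, with a coding length of 75 bases the shortest member, was at -0.11 ± 0.10 in CB and -0.20 ± 0.10 in Ps. Rpl38, known for its part in the translation of Hox mRNAs, was at -0.18 ± 0.09 in Ps. Rpl7a of the large subunit was at -0.07 ± 0.09 in CB (limma, adjusted p = 0.668) and fell by 0.27 ± 0.09 in Ps (adjusted p = 0.0411).

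The 9 members not called lower in Ps were Rpl24, Rpl35a, Rpl37a, Rpl38, Rpl39, Rpl41, Rps13, Rps21 and Rps29. Longer coding sequences went with lower values in Ps (rho = -0.58 over the 77 members, -0.67 after the loess, and -0.46 with transcript length). In CB, rho with coding length was -0.24, and -0.38 after the loess. With GC content it was 0.31 in CB and -0.02 in Ps. The values in CB and in Ps, which share no library, had a rho of 0.74.

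The role lists are to be read against 5.87% of all genes and 23 of 77 members called lower in CB, a count that ranged from 7 to 54 with 1 library left out, and against 11.2% and 68 of 77 in Ps. The 4 P stalk members were called lower in Ps, and Rpl12 in CB as well. Rpl5 and Rpl11 were lower in both fractions, Rpl11 at -0.27 and -0.38. Of the exit tunnel list, Rpl4 was lower in CB and 7 of 8 members in Ps, all but Rpl39. Every member of the catalytic, mRNA entry, mRNA exit and decoding lists was lower in Ps, with medians of -0.41, -0.41, -0.33 and -0.41, while in CB it was Rpl8, Rps3 and Rps23. Of the 9 members of the Diamond-Blackfan anaemia list, 4 were lower in CB (Rps10, Rps24, Rpl5 and Rpl11) and 8 in Ps, all but Rpl35a.

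Across the 16 libraries, the Pearson correlation of a member with the median of the members was highest for Rpl37 at 0.999, Rps19 at 0.999 and Rpl27a at 0.998. It was lowest for Rpl15 at 0.958, Rpl8 at 0.951 and Rpl24 at 0.634. The libraries fall into Ps and CB, so these values mostly describe that shared step.

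Related genes outside the name rule gave the following. Of 18 other mRNAs known as TOP mRNAs, such as those of elongation factors, 17 were called higher in Ps of siControl (median 1.00), where 29.1% of all genes were. With siAPC 4 of the 18 were called lower in CB and 15 in Ps (medians -0.22 and -0.36), against 5.87% and 11.2% of all genes. Fau was at 1.00 in Ps against CB of siControl and at -0.34 with siAPC in Ps (limma, adjusted p = 0.0157). The 76 listed genes of mitochondrial r-proteins, which form a separate ribosome, had a Ps against CB median of 0.52 with 67 called higher (29.1% of all genes), and with siAPC in Ps a median of -0.09 with 13 called lower (11.2% of all genes). The 20 genes of ribosome assembly and ribosomal RNA synthesis had medians of 0.32 and -0.14, with 4 called lower in Ps (11.2% of all genes). Rpl22 fell by 0.40 with siAPC in CB (limma, adjusted p = 0.00452), whereas its copy Rpl22l1 was at 0.17 (adjusted p = 0.518), and the difference between the copies was not tested. The 104 r-protein pseudogenes listed by name had a Ps against CB median of 1.51, and reads may be shared between them and the members.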

How the data were processed

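Per the labels and the study's methods, the authors demultiplexed reads with bcl2fastq 1.8.4, aligned them to mm10 with STAR 2.4.2a, counted reads per gene with Rsubread and applied limma 3.26.1 with voom. The deposited values are log2 CPM, 1 column per library. Strand and multi-mapping settings of the counting are not given in the sources used here, and the kit is named differently in labels and methods. Inverting the voom formula gave whole reads (within 1e-06) for 100% of 208240 values, from which depths and read shares were taken.

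Groups came from the labels. The main test was limma 3.58.1 (R 4.3.3), with 1 mean per group over 16 libraries, an intensity trend and no block, tested on simulated data. Calls were made at a Benjamini-Hochberg adjusted p below 0.05 over 13015 genes. Same-numbered libraries deviated together from their group means in Ps with CB of siAPC (correlations 0.42 to 0.62) and in the siRNAs of Ps (0.16 to 0.55), a hint of pairing that comes from the data and not from the labels. Shares and ratios were compared by exact two-sided permutation tests, and correlations carry no p. Gene models of GENCODE (GRCm38) matched 12873 genes (98.9%) and all 77 members, and start sequences came from RefSeq.

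Members, role lists and comparison lists were chosen with earlier results of these data known. Named were the 5 highest and 5 lowest members in Ps against CB of siControl, the 3 highest and lowest in log2(Diff FC), in siAPC against siControl of each fraction and in correlation with the member median, and the members of role lists. The 12 printed starts and the values of Rpl22 were settled after values were seen. So were the use of coding in place of transcript features in the plots and the transcript chosen per gene. That transcript was taken by complete coding sequence, best annotation rank, then shortest, in place of an earlier choice that took very long forms. Some long forms remain, such as 3706 bases for Rps20, with a coding length of 357. Alternatives were voom weights, other scalings, a filter on low values, another pseudocount, a replicate block, no intensity trend, other member sets and libraries left out. Values of some single genes are not reported here, which leaves 2 members out of the plot that names members in Ps against CB order, while counts and medians cover all 77.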

Additional observations from a re-analysis of the deposited data

Results flagged for a closer look

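Among 110 sets of 4 values (named members in each group of libraries, their shares and pair medians), 7 had a library far from the other 3 by Dixon's criterion, which chance meets in about 1 of 20 groups. Rpl15, Rpl8 and Rpl18, all near the bottom of the Ps against CB order, had their lowest siAPC Ps value in siAPC Ps 2. It is one of the 4 libraries where the deviation fell with GC content. Rpl15 was there at 10.38 log2 CPM (others 10.62 to 10.66), Rpl18 at 10.77 (others 10.95 to 10.97) and Rpl8 at 12.08 (others 12.25 to 12.28). The part of the GC trend in these values was not tested.

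In siControl Ps 1, which had the highest r-protein share of its group, Rpl41 was at 13.02 log2 CPM (others 12.58 to 12.58) and Rps3 at 11.95 (others 11.66 to 11.70). Rpl24 in siControl CB 3 was at -0.89 (others -0.00 to 0.14), at few reads. Rps21 in siAPC CB 4 was at 9.68, above the others at 9.58 to 9.59.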

How the results depend on the processing

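The 76 members called higher in Ps stayed within 1.5 times of that count under every alternative but the smaller member set (35 of 35 in each siRNA), and under every setting run no member was called higher or lower for log2(Diff FC). At an unadjusted p below 0.05 quantile normalization gave 22 members higher and 1 lower there. The medians of Ps against CB moved to 0.97 and 1.04 (siControl and siAPC) with total listed reads, 0.52 and 0.60 with quantile normalization and 0.65 and 0.62 with the loess, and members past the 2-fold rule to 34 in siControl, to 7 and 17, and to 10 and 6. The log2(Diff FC) median reversed to 0.041 with total listed reads and 0.098 with quantile normalization, and so did Ps against CB of Rpl18 (-0.057 in siControl) and Rpl8 (-0.072 in siAPC) with quantile normalization. Members that were not called turned their sign as well. Ps against CB of Rpl24 in siControl was -0.11 with the loess. The log2(Diff FC) of Rps24 was 0.14 with total listed reads, 0.20 with quantile normalization and 0.022 with the 4 GC-trend libraries left out, and with quantile normalization Rpl7a was at 0.030 and Rps3 at 0.0086. For siAPC against siControl in CB, quantile normalization gave 0.098 for Rpl41, 0.0054 for Rpl7a and 0.066 for Rps21, which was at 0.0086 with total listed reads and 0.052 with the loess. In Ps it gave 0.087 for Rps21 (0.050 with total listed reads and 0.050 with the loess), 0.044 for Rpl38 (0.013 with the loess) and 0.027 for Rpl41. The cause of these reversals was not tested.

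Members lower with siAPC in CB numbered 35 with voom weights, 52 with total listed reads, 43 with quantile normalization, 53 with the loess, 49 without the 4 libraries with a GC trend, 15 without the intensity trend and 13 of 35 in the smaller set. In Ps they numbered 43 with total listed reads (median -0.20), 12 with quantile normalization (median -0.068) and 31 of 35 in the smaller set. With the replicate block they numbered 45 in CB and 72 in Ps, and Ps against CB kept 76 and 76 calls. The pairing check held for Ps with CB in siAPC and for the siRNAs in Ps. It did not hold for Ps with CB in siControl (correlations -0.12 to 0.43) or for the siRNAs in CB (-0.34 to 0.27), where 3 of 8 libraries correlated best with their own number in each.

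With libraries left out 1 at a time, calls ranged from 7 to 54 in CB and from 45 to 70 in Ps, and the siAPC difference in read share in Ps from -3.65 to -2.24 percentage points. The log2(Diff FC) median ranged from -0.151 to -0.0075, and single values turned their sign for Rpl24 (-0.118 to 0.390), Rpl39 (-0.095 to 0.080) and Rps24 (-0.083 to 0.104), as did siAPC against siControl in CB for Rps21 (-0.105 to 0.058) and for the large to small ratio (-0.0047 to 0.0053). With the 4 GC-trend libraries left out, the share differences were 10.4 and 9.38 (Ps minus CB) and -2.09 and -3.09 (siAPC minus siControl), and the large to small ratio differences -0.0409 and -0.0588, where 3 against 3 libraries cannot give an exact p below 0.1. Depth limited Rpl24 only. Of the alternatives for single named members, 644 of 691 kept direction and call.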
